A study of Mus musculus with 24 samples.

Results

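Wild-type MC38 cells (MC38-WT) were compared with MC38 cells that received an empty CRISPR/Cas9 construct (MC38-MOCK, labelled MOCK#1), by RNA sequencing of 3 samples of each line. The comparison took all genes with at most 4 zeros among the 6 samples, which were 21621 of the 52636 genes in the table, and 6 of the 24 samples of the series. MC38 is a colon adenocarcinoma cell line of the C57BL/6 mouse. MC38-WT carried no construct, was grown without puromycin and was sampled at passages 7, 8 and 9. MC38-MOCK was transfected with an empty CRISPR/Cas9 construct that carries a puromycin resistance gene, was grown with puromycin and was sampled at passages 4, 5 and 6. Both lines were grown in DMEM with fetal calf serum. The transfected cells were selected in bulk and are not a single clone. MC38-MOCK served as the control of the knockout lines of the series, so the comparison asks what the control line itself differs in from untreated cells. Transfection, puromycin, the passage number and the history of each single line cannot be told apart in it, and each line stands for 1 population of cells. The labels number the passages but name no separate cultures, so p-values measure the spread between harvests of a line.

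The measured quantity was the normalized count of a gene, which is its read count scaled by 1 factor per library and rounded to a whole number. Totals lay between 11049033 and 11687830 normalized counts. The depth, estimated from the spacing of a library's rounded values, was 10860000 to 12930000 reads in MC38-MOCK and 6760000 to 11850000 reads in MC38-WT, with sample 3 of MC38-WT the shallowest. Across genes, samples of MC38-WT correlated with r between 0.967 and 0.973, samples of MC38-MOCK with r between 0.974 and 0.983, and samples of different lines with r between 0.939 and 0.956. The genes that the knockout lines of the series target were measured first. C1galt1c1, which encodes the chaperone COSMC of the T-synthase, had 208, 202 and 244 normalized counts in MC38-WT and 242, 220 and 251 in MC38-MOCK, and C1galt1, which encodes the T-synthase itself, had 334, 415 and 455 against 312, 324 and 277. Cmas, which encodes the enzyme that activates sialic acid, had 388, 306 and 339 against 416, 384 and 386. None of the 3 genes was called (adjusted p = 0.607, 0.157 and 0.356 from limma), and neither line was a knockout of any of them.

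MC38 is classed as a colon carcinoma line, but the defining markers of epithelium were at or near 0 in both lines. Of 8 epithelial markers, 7 were at 3 normalized counts or fewer in all 6 samples, among them Epcam and Cdh1 (E-cadherin), and Cldn3 and Cldn7 were at 0 throughout. The sum of the 8 markers lay between 5 and 10 in MC38-WT and between 2 and 6 in MC38-MOCK. The 8 intestinal markers summed to 9 to 14 and to 12 to 15, with Cdx2 at 0 in all samples. The 10 leukocyte markers summed to 25 to 71 in MC38-WT and 47 to 70 in MC38-MOCK, most of it from Cd68 (17, 62 and 35 against 46, 36 and 63), while Cd3e, Cd8a and Adgre1 were at 0. The 6 endothelial markers summed to 2 to 15 and to 4 to 6. The 11 fibroblast markers behaved differently. Their sum was 1191, 1738 and 2533 from the lowest to the highest sample of MC38-WT and 765, 776 and 1065 in MC38-MOCK, and over the 18 samples of the other 6 lines it reached from 741 to 15616. Of these markers Thy1 was at 0 in all 6 samples and Pdgfra did not differ between the lines beyond the spread of the samples (401, 804 and 664 against 572, 591 and 716 normalized counts, adjusted p = 0.93 from limma). Of the 10 fibroblast markers tested, 4 were called higher and 0 lower. Fap (0, 2 and 2 against 4, 5 and 8) and Acta2 (40, 25 and 30 against 48, 47 and 28) had lower means in MC38-WT and were not called. Whether changes in the share of single cells or in the RNA per cell gave the differences below cannot be told apart in bulk RNA.

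Cells of mesenchymal character build and remodel an extracellular matrix of collagens, proteoglycans and matricellular proteins, which proteases cut and protease inhibitors protect. Secreted antagonists such as Gremlin hold back the bone morphogenetic proteins (BMPs), ligands of the TGF-beta family that steer differentiation in the intestine, where Gremlin is known as a product of the stroma. Carcinoma cells that pass through an epithelial-mesenchymal transition switch on part of this program through transcription factors such as Zeb1, Snai1 and Prrx1.

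Of the 21621 genes, 1192 (5.51%) had an adjusted p below 0.05 and are called differentially expressed genes (DEGs), 584 of them higher (2.7%) and 608 lower (2.81%) in MC38-WT. The samples of the lines did not overlap for all 1192 DEGs, and they did not overlap for 23.4% of all genes tested. Fold changes are differences of log2(normalized count + 1), positive where MC38-WT was higher. This scale understates the change of low genes. The median over all genes was -0.0055, that of the higher DEGs 1.16 and that of the lower DEGs -1.15, and 317 DEGs were more than 2-fold higher and 334 more than 2-fold lower. Protein-coding genes made up 1102 of the DEGs, and 24 were lincRNAs and 27 processed pseudogenes. The count of DEGs depended on every single sample. It fell to 703, 485 and 160 when sample 1, 2 or 3 of MC38-WT was left out. Without sample 1, 2 or 3 of MC38-MOCK the count was 134, 31 and 284. The direction of the 1192 genes stayed the same in each of these fits. This direction could not change, because the samples of the lines did not overlap in any of these genes.

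**Figure D1:**
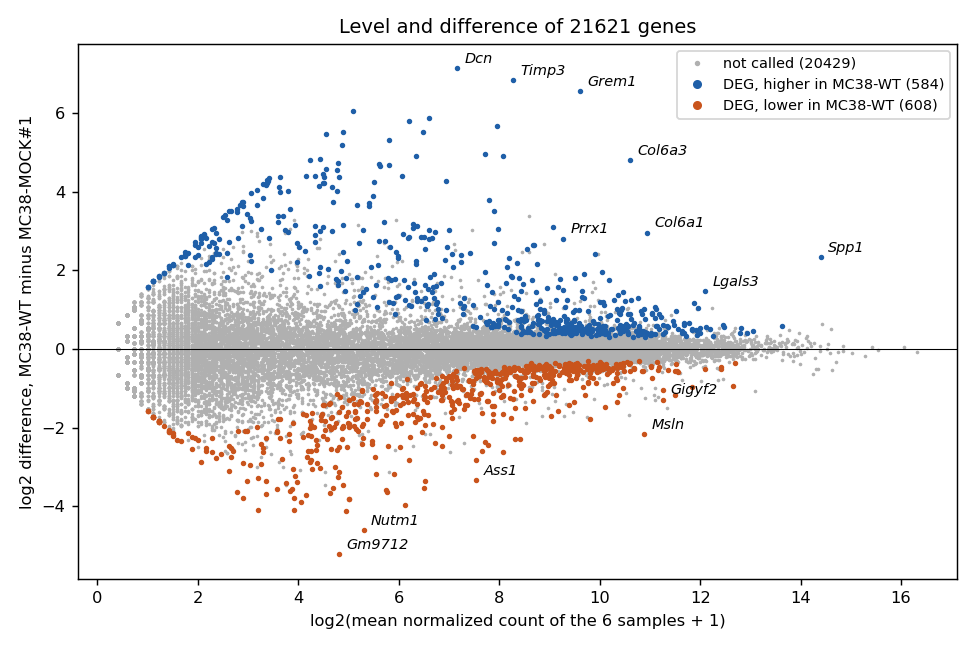
Each point is 1 of 21621 genes, placed by its mean level over the 6 samples (log2 of normalized counts plus 1, x axis) and by the log2 difference of MC38-WT minus MC38-MOCK (y axis). The 584 higher DEGs (blue) and 608 lower DEGs (orange) reach over the whole range of levels, with Dcn, Timp3 and Grem1 at the top and Gm9712 and Nutm1 at the bottom.

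The largest increases in MC38-WT, those of Dcn, Timp3 and Grem1, were of genes for secreted proteins. Dcn, which encodes the small proteoglycan decorin (chromosome 10, 97479609 to 97518143 on the plus strand of GRCm38), had 129, 417 and 304 normalized counts in MC38-WT and 0, 1 and 2 in MC38-MOCK. Its log2 difference was 7.13 (standard error 0.56, adjusted p = 0.00207). Timp3, which encodes a matrix-bound inhibitor of metalloproteinases (chromosome 10, 86300372 to 86349506, plus strand, within the span of Syn3), had 519, 615 and 697 against 5, 4 and 4, a 141-fold difference of the means and a log2 difference of 6.84 (standard error 0.20, adjusted p = 5.08e-05). Grem1, which encodes Gremlin (chromosome 2, 113746164 to 113758646, minus strand), had 1161, 1697 and 1766 against 19, 13 and 14, which is 101-fold, with a log2 difference of 6.55 (standard error 0.21, adjusted p = 5.54e-05). In each of these genes the lowest sample of MC38-WT stood far above the highest of MC38-MOCK. Timp3 and Grem1 remained called when any 1 of the 6 samples was left out, and Dcn in 5 of the 6 such fits.

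The next increases were of a mixed kind. Magea5, a member of the MAGE family of cancer-testis antigens on the X chromosome, had 52, 71 and 75 normalized counts in MC38-WT and was at 0 in all MC38-MOCK samples, at least 22-fold higher against a floor of 3 counts per library. Of its 50-base stretches, 46.2% also occur in transcripts of other genes, so that reads of its paralogs cannot be fully separated from it. Magea10 of the same family had 56, 55 and 60 against 1, 0 and 0, and Pet2, also on the X chromosome, had 135, 200 and 232 against 7, 1 and 1. Colec12, which encodes a scavenger receptor with a collagen-like domain, had 129, 158 and 145 against 2, 2 and 1. Stxbp2, which encodes a protein of vesicle fusion, had 170, 177 and 171 against 5, 2 and 2, and Ptchd1 had 86, 123 and 114 against 3, 0 and 4. Mrgprf, which encodes an orphan G protein-coupled receptor, had 27, 76 and 65 against 2, 0 and 0. Aqp1, which encodes the water channel aquaporin-1, had 331, 574 and 316 against 16, 5 and 19, a 30.5-fold difference of the means. The lincRNA Gm47015 had 372, 359 and 719 against 14, 6 and 6. The log2 differences of these 9 genes lay between 4.95 and 6.05. None of them had overlapping samples, which the choice of genes required.

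The largest decreases reached lower levels than the increases. Nutm1, a gene normally expressed in testis, had 2, 0 and 8 normalized counts in MC38-WT and 66, 61 and 93 in MC38-MOCK, a log2 difference of -4.61 (standard error 0.75, adjusted p = 0.0185). It was at most 5 in the 18 samples of the other lines. Its call held in 2 of the 6 fits without 1 sample and was lost without a trend (adjusted p = 0.0516). Slc52a3, which encodes a riboflavin transporter, had 6, 8 and 8 against 162, 120 and 109, with a log2 difference of -3.97 (standard error 0.26, adjusted p = 0.00112), and was called without any 1 of the 6 samples. Ass1, which encodes argininosuccinate synthase, the enzyme that lets cells make arginine from citrulline, had 41, 27 and 28 against 442, 338 and 234, or 10.6-fold less. In Ass1, 38.6% of the 50-base stretches are shared with other genes.

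Other decreased genes encode transcription factors and membrane proteins. Ovol2, which encodes a zinc finger repressor that keeps epithelial cells epithelial, had 24, 11 and 13 normalized counts in MC38-WT and 194, 167 and 134 in MC38-MOCK, a log2 difference of -3.35 (standard error 0.32, adjusted p = 0.00345). Nr1h4, which encodes the bile acid receptor FXR, had 4, 5 and 3 against 43, 61 and 56. Tspan7, which encodes a tetraspanin, had 10, 14 and 17 against 204, 137 and 159. Etl4 had 1, 8 and 3 against 66, 48 and 60, Tmem171 had 0, 7 and 8 against 66, 52 and 55, and 2200002D01Rik had 2, 1 and 5 against 67, 55 and 49. A further 2 were processed pseudogenes. Gm9712 had 0, 0 and 2 against 45, 53 and 62, and Gm10243 had 4, 8 and 7 against 143, 117 and 35, with 41.6% and 100% of their 50-base stretches in transcripts of other genes, so their reads may belong to other genes. Tmem171 lost its call with eBayes without a trend (adjusted p = 0.108, against 0.0422) and in 5 of the 6 fits without 1 sample.

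**Figure D2:**
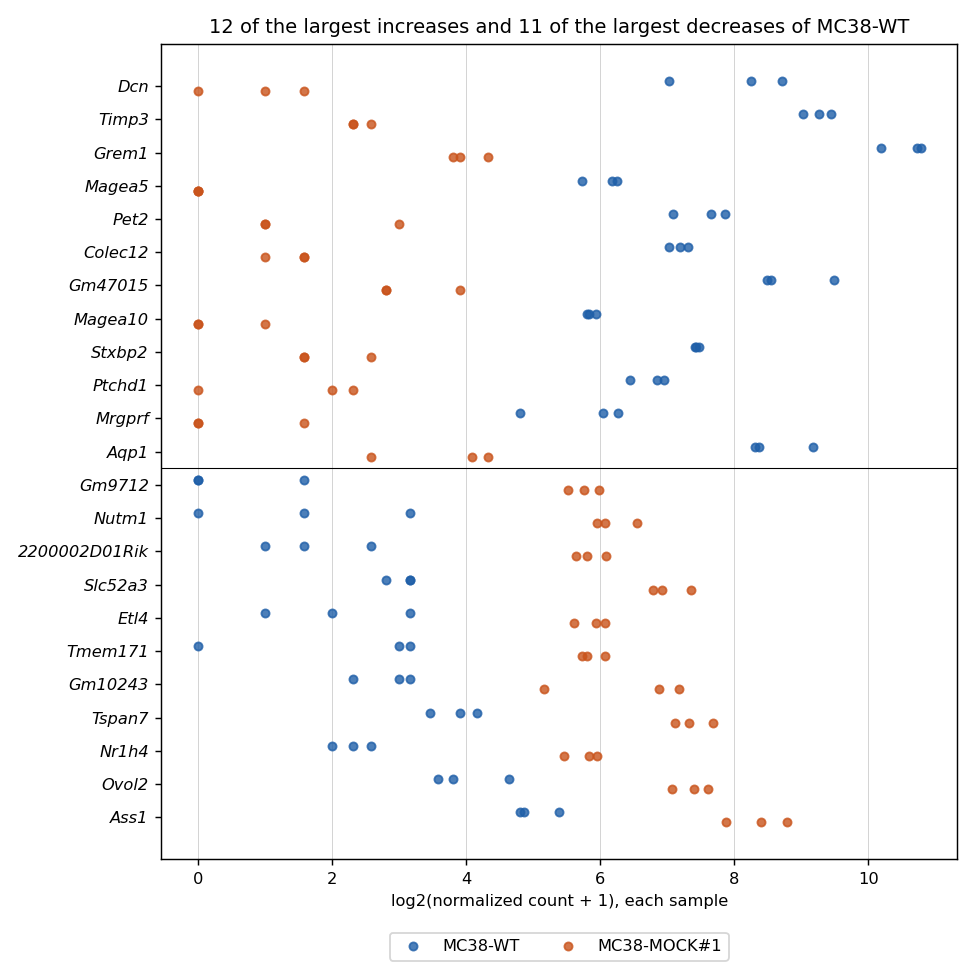
Points are single samples of MC38-WT (blue) and MC38-MOCK (orange), placed by log2 of the normalized count plus 1, for 12 of the largest increases (upper rows) and 11 of the largest decreases (lower rows) of MC38-WT. The genes were chosen among those whose samples do not overlap between the lines. They reach from Dcn (129 to 417 against 0 to 2 normalized counts) to Ass1 (27 to 41 against 234 to 442).

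Among the DEGs with the highest levels, Spp1 encodes osteopontin, a secreted phosphoprotein that binds integrins and CD44. It had 17611, 54967 and 36417 normalized counts in MC38-WT and 4512, 5161 and 11822 in MC38-MOCK, a 5.07-fold difference of the means (log2 difference 2.33, standard error 0.48, adjusted p = 0.0389). Samples of a line differed widely, but the lines did not overlap. Spp1 shares 11.6% of its 50-base stretches with other genes, among them the overlapping Gm42793. Spp1 was called in 1 of the 6 fits without 1 sample, and neither without a trend (adjusted p = 0.114) nor with robust variances (adjusted p = 0.139). Lgals3, which encodes galectin-3, had 5832, 7820 and 5785 against 2472, 2328 and 2138, or 2.8-fold more (log2 difference 1.47, standard error 0.13, adjusted p = 0.00271). Serpinh1, which encodes the collagen chaperone HSP47, had 4970, 5921 and 4850 against 2221, 2204 and 2520, or 2.27-fold more. Sgk1, which encodes a kinase induced by serum and glucocorticoids, was 2.11-fold and Zmiz1 2.06-fold higher. Msln, which encodes the surface protein mesothelin, had 816, 628 and 620 against 3837, 2953 and 2527 and was 4.51-fold lower (log2 difference -2.16, standard error 0.17, adjusted p = 0.00213). Of the 5 most abundant DEGs that fell by more than 2-fold, the other 4, namely Dgkd, Gigyf2, Eif4e2 and Atg16l1, are neighbours on chromosome 1.

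Collagens moved in both directions. Of 22 collagen genes tested, 6 were higher and 5 lower in MC38-WT, and the list's median was 0.30. The 50% called stand beside 5.51% of all genes tested. All 3 genes of the classical type VI collagen, which forms beaded microfibrils around cells, increased. Col6a3 (chromosome 1, 90765923 to 90843971) had 2311, 4034 and 2704 normalized counts in MC38-WT and 108, 96 and 110 in MC38-MOCK, a 28.8-fold difference of the means with a log2 difference of 4.80 (standard error 0.20, adjusted p = 0.000149). Col6a1 (chromosome 10, 76708792 to 76726168) had 2042, 5160 and 3199 against 267, 311 and 858 (log2 difference 2.96, standard error 0.49, adjusted p = 0.0196). Col6a2, which lies beside it (chromosome 10, 76595762 to 76623630), had 926, 2416 and 1437 against 171, 219 and 554 (log2 difference 2.42, standard error 0.49, adjusted p = 0.0353). In Col6a1 and Col6a2 sample 2 of MC38-WT was the highest and sample 3 of MC38-MOCK stood above the other MC38-MOCK samples, and their calls held in 1 and in 0 of the 6 fits without 1 sample, whereas Col6a3 kept its call in all 6.

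The upstream sequences of these 3 genes and of Grem1 are shown because the collagen VI genes rose together and Grem1 was among the largest increases. Each is a RefSeq promoter window of 300 bases on GRCm38.p6 that ends 50 bases past a transcript start, written 5′ to 3′ on the strand of the gene, which is the minus strand for all 4. The windows are chr10:76725995-76726294 for Col6a1, chr10:76623581-76623880 for Col6a2, chr1:90843922-90844221 for Col6a3 and chr2:113758599-113758898 for Grem1. The start used for Col6a1 lies 124 bases from the gene start in the table. Capitals mark matches, on either strand, to 4 motifs that were searched. The TATA box has the letters TATAAA. The CCAAT box was searched by the letters of its name. The GC box has the letters GGGCGG. The AP-1 site has the letters TGANTCA.
Col6a1: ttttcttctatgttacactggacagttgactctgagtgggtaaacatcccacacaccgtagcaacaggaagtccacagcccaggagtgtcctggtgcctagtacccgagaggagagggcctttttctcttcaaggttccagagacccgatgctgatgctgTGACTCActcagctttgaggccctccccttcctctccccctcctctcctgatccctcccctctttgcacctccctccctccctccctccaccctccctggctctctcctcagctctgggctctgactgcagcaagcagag
Col6a2: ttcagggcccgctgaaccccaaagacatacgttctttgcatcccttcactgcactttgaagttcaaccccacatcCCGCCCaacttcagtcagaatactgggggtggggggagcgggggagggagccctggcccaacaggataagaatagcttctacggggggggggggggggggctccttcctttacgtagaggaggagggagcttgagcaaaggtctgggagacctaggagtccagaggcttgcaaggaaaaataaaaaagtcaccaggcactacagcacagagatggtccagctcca
Col6a3: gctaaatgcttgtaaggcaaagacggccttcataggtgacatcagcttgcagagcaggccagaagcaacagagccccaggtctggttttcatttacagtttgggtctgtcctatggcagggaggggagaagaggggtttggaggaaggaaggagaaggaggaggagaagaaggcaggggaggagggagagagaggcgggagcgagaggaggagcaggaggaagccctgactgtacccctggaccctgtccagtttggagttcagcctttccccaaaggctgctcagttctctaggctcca
Grem1: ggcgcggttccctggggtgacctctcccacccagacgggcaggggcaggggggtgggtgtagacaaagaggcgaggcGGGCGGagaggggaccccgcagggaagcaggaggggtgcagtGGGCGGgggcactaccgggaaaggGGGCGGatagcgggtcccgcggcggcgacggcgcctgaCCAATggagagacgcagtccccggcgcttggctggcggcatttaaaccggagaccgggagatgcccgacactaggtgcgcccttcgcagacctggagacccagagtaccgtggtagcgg
Col6a1 held 1 match to the AP-1 site, Col6a2 held 1 GC box, Col6a3 held none of the motifs, and Grem1 held 3 GC boxes and 1 CCAAT box. No motif was held by all 3 collagen VI windows. Among 32544 windows of the same length, 13.6% held the TATA box, 37.4% the CCAAT box, 35.9% the GC box and 7.79% the AP-1 site. These are matches of letters and nothing was measured about binding.

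Of the fibrillar collagens of connective tissue, 2 were called higher and Col11a1 was called lower. Col1a2, which encodes a chain of type I collagen, had 94, 131 and 87 normalized counts in MC38-WT and 21, 21 and 18 in MC38-MOCK (log2 difference 2.3, standard error 0.23, adjusted p = 0.00385), and Col3a1 had 135, 322 and 145 against 34, 24 and 65 (log2 difference 2.27, standard error 0.45, adjusted p = 0.0337). Col1a1, the partner chain of Col1a2, had 54, 155 and 75 against 24, 22 and 39 and did not pass the test (log2 difference 1.61, adjusted p = 0.0756). The sixth increased gene, Col16a1, had 2357, 3238 and 2537 against 1311, 1245 and 1914. Decreases were seen for 2 chains of the basement membrane collagen IV, Col4a1 (4622, 4821 and 4363 against 6357, 5884 and 6622) and Col4a6 (13, 39 and 25 against 101, 89 and 94). Decreases were also seen for Col8a1 (12, 12 and 12 against 53, 48 and 50), Col11a1 (44, 91 and 64 against 183, 172 and 234) and Col7a1, the collagen of anchoring fibrils (658, 607 and 550 against 1420, 1130 and 850). Col5a1 had 6557, 8028 and 6751 against 5493, 5352 and 6934, and its log2 difference of 0.27 did not pass the test (adjusted p = 0.298). Of the 11 calls, 1 to 5 held when 1 of the 6 samples was left out, the fewest without sample 2 of MC38-MOCK, and 3 held without a trend.

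Of 52 proteoglycan and matricellular genes tested, 10 were higher and 5 lower (28.8% called, median 0.21). Beside Dcn and Spp1, Sdc3, which encodes the cell surface proteoglycan syndecan-3, had 525, 344 and 365 normalized counts in MC38-WT and 35, 28 and 23 in MC38-MOCK, or 14.3-fold more (log2 difference 3.79, standard error 0.22, adjusted p = 0.000728). Sparc, which encodes the collagen-binding protein osteonectin, had 1718, 1816 and 1485 against 364, 412 and 531 (log2 difference 1.95, adjusted p = 0.00207). Fbln1, which encodes fibulin-1, had 22, 56 and 47 against 1, 0 and 2, and Thbs1, which encodes thrombospondin-1, an activator of latent TGF-beta, had 108, 242 and 157 against 18, 19 and 32. The other increases were of Fbln2, Emilin1, Ccn4 and Sdc2, with log2 differences between 0.69 and 1.95. Lower in MC38-WT were Mfap5 (11, 11 and 15 against 66, 44 and 40), Nid2 (-0.85), Gpc6 (-0.74), Thbs3 (-0.50) and Smoc2, which was at 0 in all MC38-WT samples and at 2 in all MC38-MOCK samples. Fn1, which encodes fibronectin, had 9894, 26791 and 13078 against 7939, 9252 and 17323, so that the lines overlapped (adjusted p = 0.564). Of the 15 calls, 1 to 7 held without 1 sample, the fewest without sample 2 of MC38-MOCK.

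Proteases and inhibitors of the matrix gave 5 DEGs of 38 genes tested (13.2%, median 0.25). Timp3 was the largest increase. Mmp16, a membrane-anchored metalloproteinase, had 85, 144 and 129 against 12, 20 and 13. Mmp2, the gelatinase A gene, had 13, 43 and 13 against 0 in all MC38-MOCK samples, at least 7.67-fold more against the floor of 3 counts per library. Reck, a membrane inhibitor of metalloproteinases, had 2, 1 and 0 against 6, 12 and 10 and was the only DEG of the list that was lower. Of the 5 calls, 2 held without sample 3 of MC38-WT and also without sample 1 or 2 of MC38-MOCK.

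In the BMP and TGF-beta pathway, 4 of 52 genes were higher and 2 lower (11.5% called, median 0.17). The higher genes covered an antagonist, a modulator, a ligand subunit and a signal transducer. Beside Grem1, Bmper, which encodes a secreted BMP-binding regulator, had 105, 184 and 110 normalized counts in MC38-WT and 28, 26 and 26 in MC38-MOCK (log2 difference 2.23, adjusted p = 0.00572). Inhba, which encodes the activin A subunit, had 30, 88 and 74 against 10, 6 and 9 (log2 difference 2.69, adjusted p = 0.02), and Smad1, the intracellular mediator of BMP receptors, had 435, 560 and 498 against 323, 291 and 331 (log2 difference 0.65, adjusted p = 0.0257). Ltbp1, which encodes a protein that stores latent TGF-beta in the matrix, had 882, 1039 and 913 against 1949, 1521 and 1440, and Bmp1, which encodes a procollagen protease, fell by 0.64 on the log2 scale. Of the 6 calls, 1 held without sample 3 of MC38-WT or without any 1 sample of MC38-MOCK.

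Regulators of the epithelial-mesenchymal transition and mesenchymal genes gave 6 higher and 2 lower DEGs of 28 tested (28.6%, median 0.03). Prrx1, a homeobox factor of mesenchyme, had 914, 1182 and 1147 normalized counts in MC38-WT and 163, 150 and 147 in MC38-MOCK, 7.05-fold more (log2 difference 2.80, standard error 0.12, adjusted p = 0.000172), and kept its call without any 1 sample. Zeb1, a repressor of E-cadherin, had 317, 371 and 324 against 109, 117 and 143 (log2 difference 1.45, adjusted p = 0.0035), and Snai1, a repressor of the same target, had 438, 541 and 426 against 228, 171 and 188 (log2 difference 1.26, adjusted p = 0.0063). Pdgfrb, the PDGF receptor of pericytes and fibroblasts, had 336, 668 and 421 against 61, 65 and 189. S100a4 was 2.77-fold higher, although 47.4% of its 50-base stretches occur in other genes, and Foxf1 was 1.88-fold higher. Cdh2, which encodes N-cadherin, moved the other way, with 172, 187 and 167 against 433, 425 and 393 (log2 difference -1.25, standard error 0.10, adjusted p = 0.00207), as did Foxf2 (141, 138 and 151 against 213, 212 and 234). Vim, which encodes vimentin, was high in both lines, with 25775, 23001 and 22334 against 28137, 26242 and 22406 (adjusted p = 0.652). Other regulators of the list, Zeb2 (log2 difference 0.41), Twist1 (-0.07), Twist2 (-0.40) and Snai2 (-0.61), were not called. Of the 8 calls, 1 to 5 held without 1 sample, the fewest without sample 2 of MC38-MOCK.

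Of 33 epithelial and intestinal genes tested, 3 were lower and 0 higher (9.09% called, median -0.10). These were Msln, Elf3, an epithelial transcription factor (71, 56 and 33 normalized counts against 117, 122 and 138, log2 difference -1.28, adjusted p = 0.0447), and Jup, which encodes the junction protein plakoglobin (98, 153 and 75 against 269, 242 and 248, log2 difference -1.27, adjusted p = 0.0322). The calls of Elf3 and Jup held in 0 and in 1 of the 6 fits without 1 sample. Of the 50 genes on the list, 17 had too many zeros to be tested.

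Adhesion receptors gave 4 higher and 4 lower DEGs of 37 (21.6%, median 0). Itgb8, the integrin subunit that activates latent TGF-beta, had 24, 79 and 55 normalized counts in MC38-WT and 0, 1 and 2 in MC38-MOCK, and Clmp, an adhesion molecule of cell junctions, had 214, 249 and 232 against 5, 14 and 18. Itgb4 (2.36-fold) and Cd44 (1.33-fold), a receptor of hyaluronan and osteopontin, were also higher. Itga7, a laminin receptor subunit, had 34, 52 and 25 against 94, 113 and 177, and Itga6 (-0.85), Mcam (-0.83) and Cdh2 were lower as well. No call of this list held without sample 2 of MC38-MOCK.

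**Figure D3:**
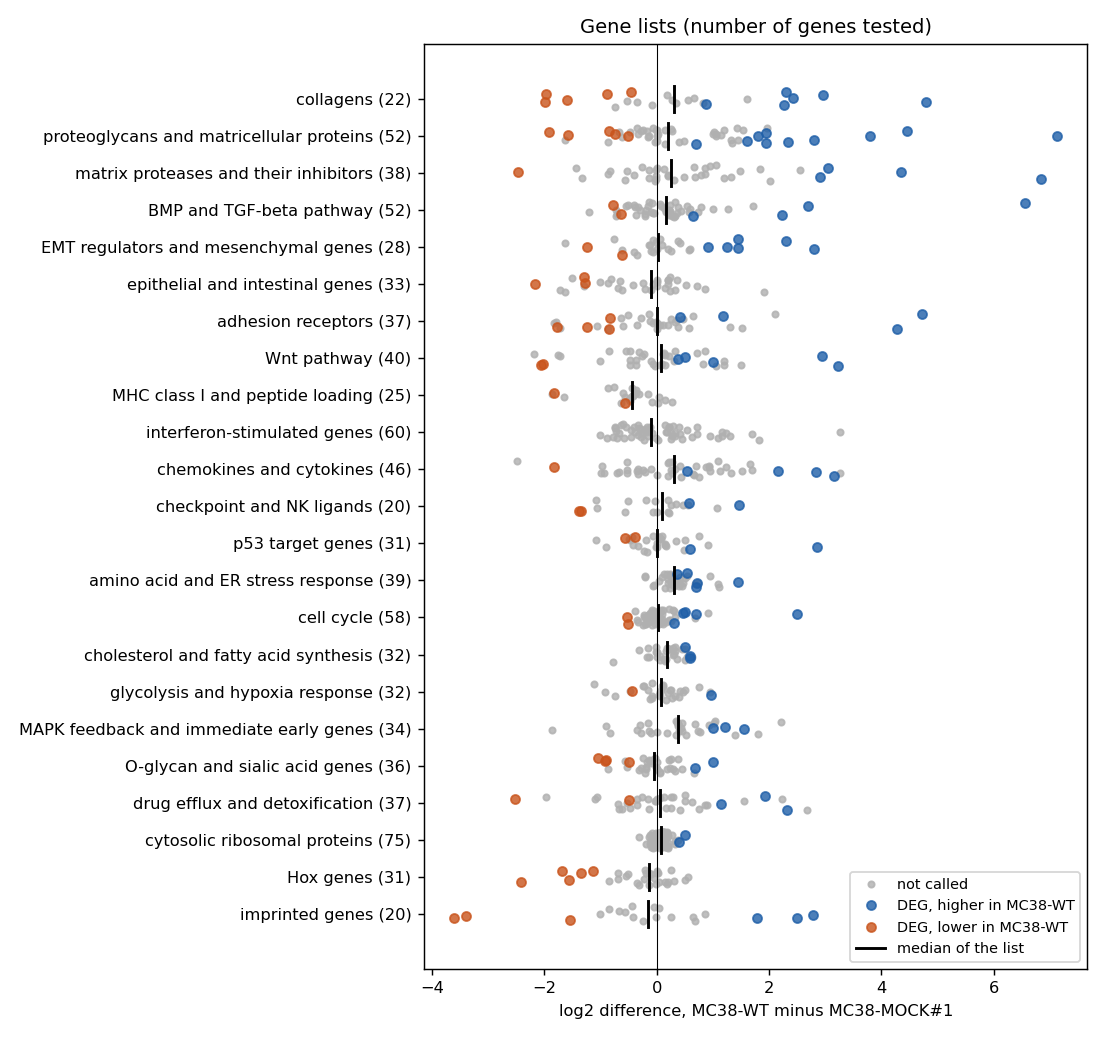
Each point is a gene tested, placed by its log2 difference of MC38-WT minus MC38-MOCK (x axis) in the row of its list, with the number of genes tested in brackets. Blue points are DEGs higher and orange points DEGs lower in MC38-WT, grey points were not called, and a black bar marks each list's median. The matrix lists hold the points farthest to the right (Dcn 7.13, Timp3 6.84), no interferon-stimulated gene is coloured, and the medians lie between -0.45 and 0.39.

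In the Wnt pathway, 5 of 40 genes were higher and 2 lower (17.5% called, median 0.08). Wnt5a, a ligand of the non-canonical branch, had 16, 24 and 22 normalized counts in MC38-WT and 1, 1 and 2 in MC38-MOCK (log2 difference 3.22, standard error 0.39, adjusted p = 0.00705). Its receptors moved in different directions. Ror1 had 8, 11 and 5 against 36, 46 and 26, and Ryk rose by 0.38 on the log2 scale. Rnf43, which encodes a ligase that removes Wnt receptors from the surface, had 12, 7 and 8 against 43, 37 and 37, and the antagonist Dkk2 had 2, 13 and 10 against 0 in all MC38-MOCK samples, at least 2.78-fold more. Of the target genes, Myc had 2138, 3325 and 2144 against 1230, 1197 and 1260 and Ccnd1, which encodes cyclin D1, had 5366, 5749 and 5367 against 3993, 3636 and 3967, while Ctnnb1, which encodes beta-catenin, differed by 0.15 without passing the test (adjusted p = 0.373). Axin2 (log2 difference 0.05), Lef1 (0.11), Znrf3 (0.15), Tcf7 (0.22) and Notum (0.86), also on the list, were not called. None of the 7 DEGs of the list was called without sample 3 of MC38-WT or sample 1 or 2 of MC38-MOCK.

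The immune lists differed in their share of DEGs, against 5.51% of all genes tested and 7.67% of those with a mean of at least 10. The 8.0% of the MHC class I list lay near the latter share. Of 25 genes of MHC class I and peptide loading, 21 had lower values in MC38-WT (median -0.45), but 2 passed the test (8.0%). Nlrc5, the transactivator of class I genes, had 56, 184 and 92 normalized counts in MC38-WT and 319, 327 and 420 in MC38-MOCK (log2 difference -1.83, standard error 0.39, adjusted p = 0.0413), and Psmb10, a subunit of the immunoproteasome, had 872, 842 and 674 against 1145, 1196 and 1172 (log2 difference -0.57, adjusted p = 0.0319). Nlrc5 was called in 1 and Psmb10 in 0 of the 6 fits without 1 sample, and neither was called without a trend. None of 60 interferon-stimulated genes was called by limma (median -0.09), and 1 was called when all 8 lines shared a fit. Their log2 differences ran from -1.01 to 3.27, with 28 above 0 and 32 below, so the lack of calls does not show equal levels. Of 46 chemokine and cytokine genes, 4 were higher and 1 lower (11% called, median 0.31). Ccl7, a chemokine for monocytes, had 93, 185 and 140 against 12, 11 and 21 (log2 difference 3.16, standard error 0.35, adjusted p = 0.00524). Fgf10, a mesenchymal growth factor for epithelium, had 104, 188 and 181 against 32, 19 and 14, Angptl2 had 538, 966 and 610 against 157, 149 and 148, and Csf1, the macrophage growth factor, had 1548, 1850 and 1534 against 1066, 1104 and 1231. Tslp was at 0 in MC38-WT and at 2, 2 and 4 in MC38-MOCK. Ccl2 had 914, 1806 and 1440 against 474, 420 and 918 and did not pass the test (adjusted p = 0.0909). None of the 5 was called without sample 3 of MC38-WT or sample 2 of MC38-MOCK.

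Of 20 genes of checkpoint and NK cell ligands, 2 were higher and 2 lower (20%). The galectin gene Lgals1 had 15582, 15723 and 13953 normalized counts in MC38-WT and 10310, 9688 and 10411 in MC38-MOCK, 1.49-fold more (log2 difference 0.57, standard error 0.08, adjusted p = 0.0126), beside the 2.8-fold of Lgals3. Cd40 had 15, 11 and 12 against 35, 27 and 43. Raet1e, which encodes a ligand of the NK receptor NKG2D, had 19, 34 and 23 against 62, 58 and 74. It shares 44.7% of its 50-base stretches with its family, so its reads are uncertain. None of the 4 was called without sample 2 of MC38-MOCK.

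All 5 DEGs of the amino acid and ER stress response were higher in MC38-WT. Of the 39 genes tested, 35 had a log2 difference above 0 (12.8% called, median 0.32). Slc7a11, the cystine transporter, had 1651, 2218 and 2283 normalized counts in MC38-WT and 561, 726 and 997 in MC38-MOCK (log2 difference 1.45, standard error 0.22, adjusted p = 0.014). Stc2 was 1.67-fold and Nupr1 1.65-fold higher, and the mitochondrial one-carbon enzymes Shmt2 (8778, 8878 and 7863 against 5821, 5847 and 5890) and Mthfd2 (4480, 4409 and 4251 against 3211, 3481 and 3590) were 1.45-fold and 1.28-fold higher. Without a trend none of the 5 was called, and none without sample 1 or 2 of MC38-MOCK. In cholesterol synthesis, Sqle, Cyp51 and Lss were 1.51-fold, 1.5-fold and 1.41-fold higher and no gene of 32 was lower (9.38% called, median 0.19), but no call held without 1 sample or without a trend. Ero1l, an oxidase of the ER, was 2-fold higher, and the glycolytic gene Pfkp was 1.36-fold lower, the only DEGs of 32 glycolysis and hypoxia genes (6.25%, median 0.09). Both calls were lost without a trend, without sample 2 or 3 of MC38-WT and without any 1 sample of MC38-MOCK.

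The growth-related lists differed in their share of DEGs, against 5.51% of all genes tested and 7.67% of those with a mean of at least 10. The 8.82% of the MAPK list lay near the latter share. Of 58 cell cycle genes, 5 were higher and 2 lower (12.1%, median 0.03). Cdkn1c, an imprinted inhibitor of the cell cycle, had 34, 16 and 37 normalized counts in MC38-WT and 4 in each MC38-MOCK sample, and Ccne1 (1.61-fold), Ccnd1 (1.42-fold), Cdk4 (0.47 on the log2 scale) and Cdc25b (0.31) were higher, while Cdkn2d (-0.53) and Cdc25c (-0.50) were lower. Of 34 MAPK feedback and immediate early genes, 3 were higher and none lower (8.82%, median 0.39). These were Myc, Phlda1 (420, 957 and 850 against 253, 168 and 318) and Il1rl1, which encodes the interleukin-33 receptor (1779, 2028 and 2264 against 869, 799 and 920, log2 difference 1.22, adjusted p = 0.00265). Of 31 p53 target genes, Eda2r had 98, 160 and 127 against 16, 22 and 13, Sesn1 was 1.51-fold higher, and Rrm2b (1.47-fold) and Tigar (1.31-fold) were lower (12.9% called, median 0.01). Of 75 cytosolic ribosomal protein genes, Rps24 (0.40) and Rpl37 (0.51) were called (2.67%, median 0.08). Rpl37 lay at the threshold and shares 14.2% of its 50-base stretches with other genes, and neither was called without a trend. Of the calls of these 4 lists, those of the cell cycle and p53 lists were all lost without sample 3 of MC38-WT or sample 1 or 2 of MC38-MOCK, those of the MAPK list without sample 2 of MC38-MOCK, and those of the ribosomal list without any 1 sample except sample 2 of MC38-WT.

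The O-glycan and sialic acid genes, the subject of the engineered lines, gave 2 higher and 4 lower DEGs of 36 (16.7%, median -0.05). St3gal6, a sialyltransferase, had 110, 110 and 119 normalized counts in MC38-WT and 230, 257 and 217 in MC38-MOCK (log2 difference -1.05, standard error 0.12, adjusted p = 0.00603), and St3gal4, another one, had 578, 472 and 605 against 324, 351 and 354 (log2 difference 0.68, standard error 0.11, adjusted p = 0.0213). Gcnt4, a branching enzyme, was 2.03-fold higher, and Gcnt2 (1.91-fold), B3gnt3 (1.85-fold) and St6galnac6 (-0.50 on the log2 scale) were lower. Of the 6 calls, 0 to 4 held without 1 sample, with 0 without sample 1 or 2 of MC38-MOCK. Of 37 genes of drug efflux and detoxification, Akr1c14 (4.08-fold), Gsta4 (2.11-fold) and Cyp2s1 (6, 2 and 5 against 0 throughout) were higher and Abcc4 (1.4-fold) and Aldh1a1 (1, 2 and 0 against 9, 13 and 7) were lower (13.5%, median 0.06). At most 1 of these 5 calls held without 1 sample, and none without sample 3 of MC38-WT or sample 1 or 2 of MC38-MOCK.

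All 5 DEGs among 31 Hox genes, which carry positional identity, were lower in MC38-WT (16.1% called, median -0.14). Hoxc10 had 10, 14 and 15 normalized counts in MC38-WT and 81, 73 and 65 in MC38-MOCK (log2 difference -2.42, standard error 0.25, adjusted p = 0.00457), Hoxb13 had 25, 29 and 18 against 57, 77 and 109, Hoxb8 had 23, 34 and 32 against 67, 85 and 120, Hoxb9 had 64, 78 and 79 against 161, 195 and 212 and Hoxc4 had 29, 30 and 32 against 60, 88 and 58. They belong to the B and C clusters. The A cluster gene Hoxa9 had 452, 352 and 415 against 414, 447 and 352 and was not called. None of the 5 was called without sample 2 of MC38-MOCK.

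Imprinted genes, which are read from 1 parental copy, had 3 higher and 3 lower DEGs of 20 (30.0%, median -0.15). Zrsr1 had 2, 2 and 0 normalized counts in MC38-WT and 27, 33 and 16 in MC38-MOCK, Snrpn had 0, 5 and 2 against 30, 31 and 20, and Plagl1 had 62, 63 and 84 against 193, 223 and 192. Igf2r, the receptor that clears IGF2, had 923, 1368 and 1090 against 268, 292 and 421 (log2 difference 1.79, standard error 0.20, adjusted p = 0.00589), and H19 had 4, 10 and 5 against 0 in all MC38-MOCK samples, at least 2.11-fold more. The genes overlap others in the annotation (Igf2r with Airn, Zrsr1 with Commd1, Snrpn with Snurf), and whether counting used the strand is not given in the sources used here. In Snrpn, 21.7% of the 50-base stretches are shared with other genes. None of the 6 was called without sample 1 or 2 of MC38-MOCK.

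The 18 samples of the other 6 lines took no part in calling the DEGs, and the levels of both lines were set against them. Of the 1192 DEGs, 22 (1.85%) had all MC38-WT samples above or below all 21 other samples of the series, and 120 (10.1%) had all MC38-MOCK samples so. Over all genes tested the shares were 0.282% and 1.05%. A gene can be set apart only where the samples of MC38-WT and MC38-MOCK do not overlap. This held for all DEGs but for 23.4% of all genes tested, so the shares of the DEGs are raised by how they were called. The balance depended on the lines compared. With only the CRISPR/Cas9 lines (MC38-CMAS KO, MC38-COSMC KO and MC38-DKO) as the others, 259 DEGs were set apart in MC38-WT and 176 in MC38-MOCK, beside 2.66% and 1.87% of all genes tested. The other lines are MC38-MOCK#2, MC38-FUT4 and MC38-FUT9, and all 6 were grown with puromycin.

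Set apart in MC38-WT over the whole series were 18 higher and 4 lower DEGs. Dcn stood above all (129 to 417, against at most 125 in the 18 samples of the other lines), as did Col1a2 (87 to 131, at most 78), Glipr1 (125, 193 and 161 normalized counts, at most 114), Podnl1, a small leucine-rich proteoglycan (54, 85 and 67, at most 51), and Bcat1, which starts the breakdown of branched-chain amino acids (2579, 2457 and 2430, at most 2374). Wnt5a was above as well, with 16 to 24 against at most 10. Below all were Lrrc8d (422, 436 and 426, at least 458 elsewhere), Foxf2 (138 to 151, at least 156) and Unc45a (625, 684 and 587, at least 685). The gaps to the next sample were small in most of these genes.

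Set apart in MC38-MOCK were 74 DEGs above and 46 below all 21 other samples. Below were Grem1 (13 to 19, at least 59 in the 18 samples of the other lines), Sdc3 (23 to 35, at least 54), Mxra8, a matrix remodelling protein (31, 15 and 27, at least 61), the long noncoding RNA Fendrr next to Foxf1 (28, 24 and 23, at least 45) and Gm42793, which lies over Spp1 (15, 15 and 21, at least 44). Col6a3 and Prrx1 were also lower there than in any other sample. Above were Nutm1 (61 to 93, at most 5), Shroom3, an actin-binding protein of epithelial shape (56, 69 and 112, at most 36), Cdon, a Hedgehog co-receptor (564, 623 and 850, at most 348), Gigyf2 (2713, 3339 and 4508, at most 1595) and Sh3bp4 (1122, 1462 and 1586, at most 604).

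For each DEG, the mean log2 level of every other line was also placed between those of MC38-WT and MC38-MOCK. In MC38-DKO, 1080 of the 1192 DEGs lay nearer to MC38-MOCK and 110 nearer to MC38-WT. The numbers nearer to MC38-WT were 874 in MC38-CMAS KO, 889 in MC38-COSMC KO, 839 in MC38-MOCK#2, 627 in MC38-FUT4 and 1042 in MC38-FUT9. The end points are the samples on which the DEGs were chosen, so these counts are descriptions without a test. Timp3 had a mean of 3.0 normalized counts in MC38-DKO and 5.67 in MC38-FUT4, close to the 4.33 of MC38-MOCK, but 1085 in MC38-CMAS KO and 1481 in MC38-FUT9. Col6a3 had 163 in MC38-DKO and 178 in MC38-MOCK#2 and 3099 to 3962 in MC38-FUT4, MC38-CMAS KO and MC38-COSMC KO. Msln had 3156 in MC38-DKO, as in MC38-MOCK (3106), and 74.3 in MC38-FUT9. Ovol2 had 201 in MC38-DKO and 5.0 to 21.3 in the remaining 5 lines.

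**Figure D4:**
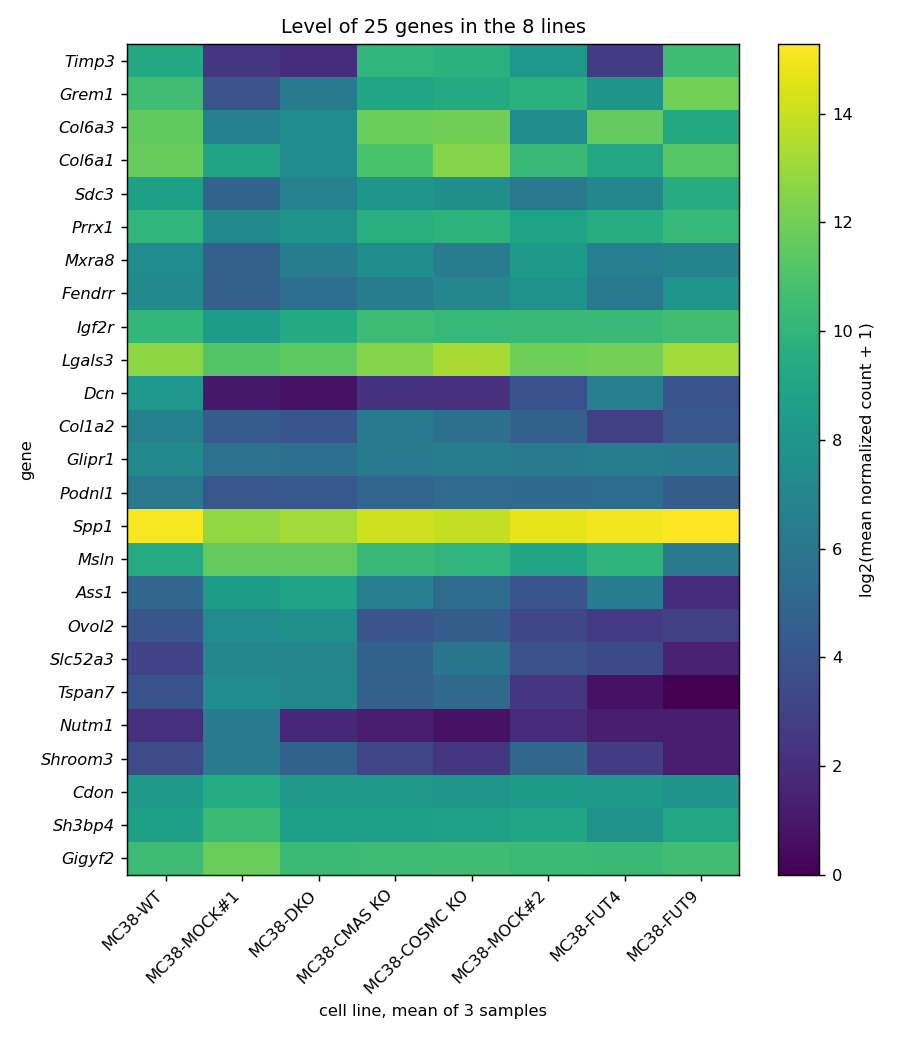
Colour gives the level of 25 genes (rows; log2 of the mean normalized count of 3 samples plus 1, scale at the right) in the 8 lines (columns). Timp3 is low in MC38-MOCK, MC38-DKO and MC38-FUT4 (4.33, 3.0 and 5.67 normalized counts) and Ovol2 is high in MC38-MOCK and MC38-DKO (165 and 201), while high Nutm1 (73.3) and Gigyf2 (3520) are found in MC38-MOCK.

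By position, DEGs were not spread evenly. Among 13515 genes with a mean of at least 10, 7.67% were DEGs. The share was 16.3% on chromosome 14, 14% on chromosome 15, 11.3% on chromosome 13, 11.1% on chromosome 18 and 10.8% on chromosome 10, and between 4.12% and 8.71% on the others. On chromosome 15, 52 DEGs were higher and 16 lower and the median of all 484 genes was 0.21, on chromosome 10 51 were higher and 19 lower with a median of 0.09, and on chromosome 14 50 were higher and 22 lower with a median of 0.03. On chromosome 13, 18 were higher and 43 lower with a median of -0.10, and on chromosome 18, 10 were higher and 26 lower with a median of -0.15.

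Runs of neighbouring genes that lay on the same side were listed after the values were seen, as stretches of at least 10 genes (mean of at least 50) in which the running median over 11 genes was beyond 0.4 in size. There were 7 such runs with 109 genes, of which 55 were DEGs, 43 higher and 12 lower. Among all 10881 genes with a mean of at least 50, 835 were DEGs. The runs were picked by the same differences, so a high share of DEGs and of genes on the same side follows from the rule. The run with the strongest difference lies on chromosome 1 from Pde6d to Sh3bp4 (86542994 to 89155068 of GRCm38, 2.61 Mb). Of its 12 genes, 11 were lower in value in MC38-WT, 8 were DEGs and 9 had MC38-MOCK above all 21 other samples. Gigyf2, a translational repressor, had 1386, 1416 and 1433 normalized counts in MC38-WT and 2713, 3339 and 4508 in MC38-MOCK. Dgkd, a diacylglycerol kinase, had 1764, 1852 and 1671 against 3208, 3905 and 4997, Atg16l1, an autophagy gene, had 793, 784 and 861 against 1484, 1866 and 2196, and Eif4e2, the partner of Gigyf2 in repression, had 1630, 1585 and 1530 against 2566, 3313 and 4061. Cops7b, Usp40, Hjurp and Sh3bp4 were lower as well. Pde6d (-1.33), Dis3l2 (-0.86), Arl4c (-0.44) and Gm6136 (0.23) were not called. The median over the run was -1.17 on the log2 scale, a 2.25-fold difference. Set against the mean of the 18 samples of the other lines, the median gene of the run lay at 0.02, 0.02 and 0.02 in the samples of MC38-WT and at 0.82, 1.25 and 1.44 in those of MC38-MOCK. Among the flanking genes, Ncl (0.08), Ptma (0.01) and Agap1 (0.20) were not called. Armc9 (-0.46), before the run, was called lower and had MC38-MOCK above all 21 other samples, and Scly (-0.68) and Asb1 (-0.56), beyond it, were called lower.

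**Figure D5:**
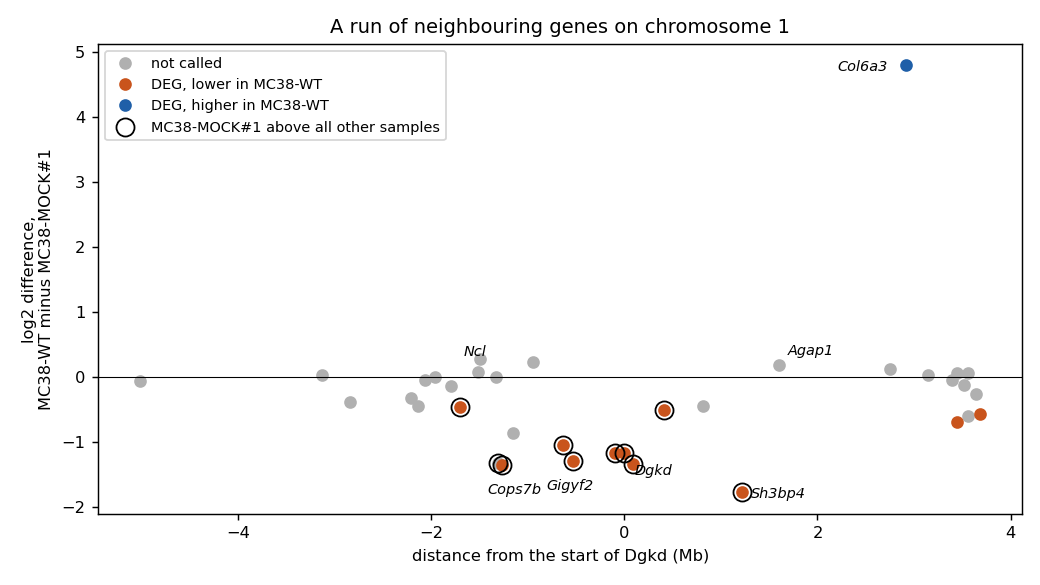
Points are genes on chromosome 1 with a mean of at least 50 normalized counts, placed by their distance in Mb from the start of Dgkd (x axis) and by the log2 difference of MC38-WT minus MC38-MOCK (y axis), with DEGs in colour and circles where MC38-MOCK lay above all 21 other samples. From Cops7b to Sh3bp4 most genes lie near -1.17, most genes on both sides lie closer to 0 (Armc9 at -0.46), and Col6a3 lies apart at 4.80.

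The other 6 runs had smaller medians. They were 0.59 on chromosome 14 from Ero1l to Gm6055 (23 genes, 15 higher DEGs, Lgals3 among them), 0.69 and 0.62 on chromosome 15 from Washc5 to Ccn4 (10 genes, 6 higher DEGs, Myc among them) and from March6 to Stk3 (15 genes, 5 higher DEGs, Sdc2 among them), 0.49 and 0.45 on chromosome 10 from Ppp1r12a to Tmem19 (16 genes, 7 higher DEGs) and from Lemd3 to Arhgef25 (23 genes, 10 higher DEGs, Cdk4 among them) and -0.45 on chromosome 13 from Nop16 to Rab24 (10 genes, 4 lower DEGs). Set against the mean of the 18 other samples, the median gene of a run lay between -0.15 and 0.26 in the single samples of MC38-WT. In those of MC38-MOCK it lay between 0.26 and 0.49 on chromosome 13 and between -0.60 and -0.21 in the other 5 runs. MC38-DKO lay close to MC38-MOCK in 5 of the 6, with a median difference from it between -0.02 and 0.08, and at 0.29 in the run from Ppp1r12a to Tmem19.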

How the data were processed

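RNA of MC38 cells was prepared as stranded polyA libraries and sequenced with single 50-base reads. The authors trimmed the reads with Sickle, aligned them with HISAT2 2.0.4 to GRCm38, counted them per gene with featureCounts (Subread 1.5.0-p3), leaving out reads that overlap several genes, and normalized with edgeR 3.18.1. The deposited values are read counts scaled by 1 factor per library and rounded to whole numbers, so their unit is a score and they are not raw counts. The strand setting of the counting is not given in the sources used here. The table holds 52636 gene identifiers of 24 samples; symbols and positions came from GENCODE M21, which lists 52489 of them, 49995 with the same start and end. The length column of the table was not used.

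The study compared raw counts with a count test. Because the deposited values are rounded products, each gene was tested with limma 3.58.1 (R 4.3.3) after taking log2(value + 1), using linear models and empirical Bayes moderation with the prior variance trended on the mean, for the 3 samples of either line, with the Benjamini-Hochberg adjustment over the 21621 genes with at most 4 zeros. All p-values are two-sided. In simulated counts of this comparison, 129 of 200 genes changed 2-fold among 20731 were called, all in the right direction, with 10 unchanged genes, and 0 were called when none changed. The noise was drawn independently for each sample. Only genes above a minimum mean were changed, so the simulation does not show how changes at the lowest levels are called. Library factors and depth were estimated from the spacing of a library's rounded values. Alternatives were a pseudocount of 5, a mean of at least 10, rescaling to the same total or by median-of-ratios, all 8 lines in 1 fit, eBayes without a trend or robust, the replicate number as a block, an absolute log2 fold change above 1, and each sample left out in turn.

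The comparison, its gene lists and its rules were chosen with earlier results of these data known. Named were the 12 largest increases and decreases among DEGs with a symbol, no overlap of samples and a mean of at least 50 in the higher line. Also named were the 5 most abundant DEGs of each direction changed over 2-fold and up to 5 DEGs and 2 abundant members of each list. The rule further took the 5 DEGs with the largest gap among those set apart in each line and direction, and C1galt1c1, C1galt1 and Cmas. The remaining DEGs of the lists, the marker genes, Col1a1 and Hoxa9 were named after their values were seen. So were further uncalled genes of the mesenchymal and Wnt lists, and the genes of the chromosome runs and their neighbours. Older symbols in the lists were matched through RefSeq synonyms. Of a list's genes, those with more than 4 zeros were not tested. For 174 of the named genes, 50-base stretches of the GENCODE transcripts were searched in those of other genes. Of the genes that this rule names, 2 are not reported here. Floors and intervals cover counting error only. Other steps ran in Python 3.11.15 (pandas 2.3.3, numpy 2.4.6), and plots were drawn in matplotlib 3.10.9.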

Additional observations from a re-analysis of the deposited data

How the results depend on the processing

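The 1192 DEGs (584 higher, 608 lower) stayed within 1.5 times with a pseudocount of 5, a mean of at least 10, either rescaling and robust eBayes (1211 to 1614). Values rescaled to the same total gave 42.6% higher calls, 521 and 701, against 49.0% before. All 8 lines in 1 fit gave 2981 (1445 higher, 1536 lower), and eBayes without a trend 717 (307 higher, 410 lower). A fold change above 2 was met by 651 (317 and 334). Leaving out 1 sample gave 31 to 703 DEGs, 24 to 404 of them higher and 7 to 299 lower. With the replicate number as a block 0 genes were called, with 3788 at an unadjusted p below 0.05, against 4472 in the unblocked fit. After each line's mean was subtracted gene by gene, the remaining deviations of same-numbered samples correlated with 0.139, -0.138 and -0.044. With 3 samples per line these values cannot settle whether the numbers pair the samples. Of the DEGs set apart, the 22 of MC38-WT became 259 with only the CRISPR/Cas9 lines, 35 with all lines in 1 fit, 0 with the block and 0 to 12 without 1 sample, and the 120 of MC38-MOCK became 71 above 2-fold, 193, 62 without a trend, 0 with the block and 7 to 76 without 1 sample. The cause of these shifts was not tested. Of 160 named DEGs, 80 were called in all 7 settings other than the block and the left-out samples. In the 6 fits without 1 sample, 10 were called in all and 43 in none. No sign changed in any fit. In the fits without 1 sample this was fixed in advance, because the samples of the lines did not overlap in any DEG.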
